A study of Mus musculus with 38 samples.

Results

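Retinoic acid genes and COUP-TF genes were followed through mouse cells that pass between the primed and the naive pluripotent state. The 9 genes are Aldh1a2, Dhrs3, Cyp26a1, Crabp1, Crabp2, Rarb, Rarg, Nr2f1 and Nr2f2, out of 29267 genes in each table, and all 9 were found by Ensembl gene identifier in each of the 38 RNA libraries. Nr2f1 and Nr2f2 were picked because they fell with an inhibitor of JUN N-terminal kinase (JNKi) in these libraries. Their levels with and without JNKi are therefore a description with no test, and calls in those comparisons, and between genotypes at day 3, are counted over the other 7 genes. Counts that set iCD1 libraries against primed cells, kiPSCs or other days include the pair. The choice favours high values in iCD1, and tests of the pair there take no account of it. Expression is given as TPM, a transcript abundance corrected for transcript length and library size, and reads are given in expected counts, the estimated number of fragments of a gene.

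Retinoic acid is made from vitamin A inside cells and acts as a ligand of nuclear receptors. Retinol is first oxidised to retinal and then to retinoic acid, binding proteins carry the products through the cytosol, and enzymes of the CYP26 family break retinoic acid down. Retinoic acid receptors bind as pairs with RXR at direct repeats of a short half-site, and Cyp26a1 and Rarb are themselves classical targets of these receptors. In the mouse embryo the pathway patterns the trunk and the hindbrain, while the COUP-TF orphan receptors, which bind similar repeats, are known from mesoderm and neural development.

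The libraries came from 18 groups. Naive cells were kiPSCs, the naive cells obtained at the end of the primed to naive transition (2 libraries), and ESCs grown with LIF and inhibitors of GSK3 and MEK (5 libraries, of which replicates 1 and 2 are labelled CBA/CaJ X C57BL/6J, with no strain on the label of the others). Primed cells were kEpiSCs (2 libraries) and EpiSCs (4 libraries). The kEpiSCs are an epiblast stem cell line selected after lentiviral transfer of Klf4 and carrying an Oct4-GFP reporter. EpiSCs are the embryo-derived cells grown with Activin A and bFGF. Per the study's methods, ESCs and EpiSCs alike came from crosses with OG2 males, the source of the Oct4-GFP reporter. How the strain label of ESC replicates 1 and 2 relates to that cross is not stated. The transition started from kEpiSCs that were moved to iCD1 medium, and cells were taken on days 1, 2 and 3 with JNKi (2, 3 and 2 libraries) and without it (2 libraries each). JNKi was SP600125, at a dose that the labels of the RNA libraries do not give. In the other arm, ESCs with the single exon of c-Jun deleted by a pair of Cas9 guides (JunKO) and wild-type ESCs (WT) were turned into EpiSC-like cells. Each genotype gave 2 libraries at day 3 in iCD1 with JNKi, 2 at day 3 in iCD1, 1 of the Klf4 line in primed culture (kiEpiSC) and 1 of the line named without Klf4 (iEpiSC). Whether JunKO was 1 clone is not given in the sources used here, and neither are the components of iCD1, including any retinoid. The step into iCD1 changed medium, growth factors and time together, so these cannot be told apart.

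Aldh1a2 (ENSMUSG00000013584, chr9:71215789-71296243 of mm10, plus strand) encodes the dehydrogenase that makes retinoic acid from retinal. Dhrs3 (ENSMUSG00000066026, chr4:144892827-144928209, plus) encodes a reductase that turns retinal back into retinol. Cyp26a1 (ENSMUSG00000024987, chr19:37697798-37701536, plus) encodes a hydroxylase that degrades retinoic acid. Crabp1 (ENSMUSG00000032291, chr9:54764748-54773110, plus) and Crabp2 (ENSMUSG00000004885, chr3:87948666-87953376, plus) encode cellular retinoic acid binding proteins, of which CRABP2 is known to hand the ligand to the receptors. Rarb (ENSMUSG00000017491, chr14:16430839-16819156, minus) and Rarg (ENSMUSG00000001288, chr15:102234938-102257517, minus) encode receptors. Nr2f1 (ENSMUSG00000069171, chr13:78188973-78199757, minus) encodes COUP-TFI and Nr2f2 (ENSMUSG00000030551, chr7:70351944-70366735, minus) encodes COUP-TFII. Genes on the other strand overlap Nr2f1 (A830082K12Rik), Nr2f2 (B130024G19Rik) and Rarb (Top2b). Whether counting used strand is not given in the sources used here, so shared reads cannot be told apart.

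Rarb and Cyp26a1 are shown by sequence because theirs are the only windows of these genes that hold a complete repeat of the kind the receptors bind. RefSeq promoter windows of GRCm38.p6, running 250 bases before to 50 bases after a start site, were found for 8 of the 9 genes (12 windows). A half-site was taken as AGGTCA or one of its close forms, namely AGTTCA, further the form GGGTCA, and lastly the form GGTTCA, on either strand, and a DR5 was a pair of these in one direction with 5 bases between them. The DR5 of Rarb lies at chr14:16575507-16575535, minus strand, inside the span of the gene and ahead of the start site that this window is built on, and that of Cyp26a1 at chr19:37697770-37697798, minus strand, ahead of its RefSeq start site. Both half-sites of each pair are in capitals:
Rarb: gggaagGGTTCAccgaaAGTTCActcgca
Cyp26a1: caaattAGTTCAcccaaAGTTCAtcttta
The second half-site is AGTTCA in both genes. The repeat ends 36 bases before the start site in Rarb, and 15 bases separate it from the start site in Cyp26a1. Printed along the direction of transcription, the 100 bases before each start site (chr14:16575477-16575576, minus, and chr19:37697708-37697807, plus) show the repeat of Cyp26a1 as its reverse complement:
Rarb: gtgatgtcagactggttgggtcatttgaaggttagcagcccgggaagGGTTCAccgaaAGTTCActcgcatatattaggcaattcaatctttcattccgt
Cyp26a1: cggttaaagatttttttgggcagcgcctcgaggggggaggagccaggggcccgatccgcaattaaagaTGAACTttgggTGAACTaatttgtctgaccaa
Among all 32851 windows of this length, 32 (0.0974%) held a DR5. Of 47 other genes of the pathway and the NR2 family named below, 32 had a window and 0 of these held one. No window of the 8 genes held a pair spaced by 1 or 2 bases (0.222% and 0.268% of all windows) or the AP-1 motif TGACTCA (5.2% of all windows). At least 1 half-site was present in 43.7% of all windows, and outside the windows with a DR5 it occurred in 1 window each of Rarg and Nr2f1. These are matches of letters, not measured binding.

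Library totals ran from 2164711 to 15944950 expected counts, highest in kEpiSCs (15754521 and 15944950) and lowest in EpiSCs (2164711 to 2868808). Counts of 0 in EpiSCs therefore say less than counts of 0 in kEpiSCs. Jun, the deleted gene, was at 5.01 to 14.6 TPM in the 6 JunKO libraries and at 40.4 to 240 TPM in the 6 WT libraries, with no overlap. Klf4 was at 36.3 and 36.6 TPM in JunKO and WT iEpiSCs and at 0.52 to 1.94 TPM in EpiSCs, so the iEpiSCs, named without the transgene, were not at the EpiSC level. Of 10 naive markers, the summed TPM was 7400 to 8680 in kiPSCs, 7050 to 10500 in ESCs, 198 to 199 in kEpiSCs and 189 to 485 in EpiSCs. At day 3 in iCD1 it was 202 to 248, with Klf4 itself the highest of the list. The effective gene length used by the authors' counting was 73.5 bases below gene length in ESC replicates 1 to 4, and 133 to 192 bases below it in the other 34 libraries, ESC replicate 5 (176 bases) and all EpiSC libraries included. In contrasts with ESCs, that difference and the cell state cannot be told apart except through ESC replicate 5.

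The naive states differed from the primed states at both ends of the pathway: the synthesis enzyme Aldh1a2 was higher in naive cells, and the binding protein Crabp2 was lower. Aldh1a2 had 9.61, 3.88, 5.09, 7.22 and 7.0 TPM in ESCs, against 0.36, 0.00, 0.60 and 0.00 TPM in EpiSCs. It had 7.30 and 4.89 TPM in kiPSCs, against 0.15 and 0.05 TPM in kEpiSCs. Neither pair of groups overlapped, and the log2 fold changes were 4.67 ± 0.65 (SE, adjusted p = 7.46e-05) for ESCs over EpiSCs and 5.66 ± 0.96 (adjusted p = 0.000112) for kiPSCs over kEpiSCs, by edgeR's quasi-likelihood test with Benjamini-Hochberg adjustment. EpiSCs held 3 Aldh1a2 counts in all, against 195 in ESCs, a ratio of 27.9 (95% counting interval 9.41 to 136).

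Crabp2 had 5.11, 4.47, 6.74, 4.17 and 13.2 TPM in ESCs, against 18.6, 31.7, 12.7 and 57.9 TPM in EpiSCs. The groups overlapped only through ESC replicate 5, and the log2 fold change was -2.02 ± 0.46 (adjusted p = 0.00244). Between kiPSCs (4.54 and 2.43 TPM) and kEpiSCs (14.4 and 11.4 TPM) it was -1.92 ± 0.30 (adjusted p = 4.75e-05). Among the other primed libraries, Crabp2 in WT and JunKO kiEpiSCs (8.05 and 10.8 TPM) lay inside the ESC range. In WT and JunKO iEpiSCs (17.7 and 14.1 TPM) it lay above that range. Dhrs3 was lower in ESCs, at 3.85 to 6.11 TPM against 7.09 to 43.6 TPM in EpiSCs (log2 fold change -2.07 ± 0.54, adjusted p = 0.00626). EpiSC replicates 2 and 4 were far above replicates 1 and 3 for Dhrs3. With replicate 5 as the only ESC library, the Crabp2 value was -1.18 (adjusted p = 0.25) and the Dhrs3 value -2.04 (adjusted p = 0.172), so neither passed, while Aldh1a2 did (4.76, adjusted p = 0.00308).

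Crabp1 pointed in different directions in the 2 naive to primed contrasts. It had 22.3, 19.9, 38.6, 20.3 and 38.3 TPM in ESCs, against 3.64, 69.5, 57.2 and 194 TPM in EpiSCs, and this did not pass (log2 fold change -1.38 ± 0.59, adjusted p = 0.0685). Without EpiSC replicate 1, which was below every ESC library, it was -1.71 and passed (adjusted p = 0.0021). In kiPSCs, at 28.0 and 34.6 TPM, Crabp1 was higher than in kEpiSCs, at 11.1 and 12.2 TPM (log2 fold change 1.31 ± 0.30, adjusted p = 0.0015).

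Cyp26a1, which degrades retinoic acid, was near 0 in both naive states and varied between the primed lines. It had 15.0 and 16.3 TPM in kEpiSCs, while in EpiSCs it had 6.10 TPM in replicate 1 and 0 in replicates 2, 3 and 4. That contrast did not pass (log2 fold change 3.45 ± 1.08, adjusted p = 0.151), and without EpiSC replicate 1 it passed (9.63, adjusted p = 0.00294). In kiPSCs Cyp26a1 was at 0.00 and 0.19 TPM, or 1 count in all against 464 in kEpiSCs, a ratio of 218 (95% counting interval 38.9 to 8610, adjusted p = 8.85e-08). ESCs held 3 counts and EpiSCs 13, and all 13 were in EpiSC replicate 1.

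Rarg, which had the highest TPM of the 9 genes in kEpiSCs, was at 98.8 and 109 TPM in kEpiSCs, against 55.1, 31.5, 48.5 and 24.5 TPM in EpiSCs. It passed as higher in kEpiSCs (log2 fold change 1.42 ± 0.31, adjusted p = 0.0439). The call was lost without any one of EpiSC replicates 2, 3 and 4 or kEpiSC replicates 1 and 2 (values 1.26 to 1.55). In kiPSCs (61.7 and 76.1 TPM) Rarg was lower than in kEpiSCs (-0.75 ± 0.20, adjusted p = 0.00371). Rarb stayed at or below 2.29 TPM in these 13 libraries and passed in none of the 4 contrasts.

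The COUP-TF genes were near the limit of detection in all 4 states. Nr2f2 was at 0.08 and 0.12 TPM in kiPSCs, 0.24 to 0.40 TPM in ESCs, 0.11 and 0.29 TPM in kEpiSCs and 0.00 to 0.59 TPM in EpiSCs. Nr2f1 was at 0.66 and 5.16 TPM in kiPSCs, 0.54 to 2.22 TPM in ESCs, 0.00 and 0.04 TPM in kEpiSCs and 0.31 to 1.52 TPM in EpiSCs. The 20 Nr2f1 counts of kiPSCs, against 1 count in kEpiSCs, gave a ratio of 42.6 (95% counting interval 6.82 to 1770). Nr2f1 was called in the 17-library fit, which also holds the iCD1 libraries where the gene is high. It passed the low-count filter there and not in the fit of the states, so this call is no test of kiPSCs and kEpiSCs alone. The 12 fibroblast markers summed to 49.2 to 130 TPM in kiPSCs and 7.73 to 500 TPM in ESCs. They summed to 20.5 to 25.0 TPM in kEpiSCs and 23.2 to 152 TPM in EpiSCs. Of 11 tested in kiPSCs over kEpiSCs, 9 rose and 1 fell (57.5% of all genes passed). Their part in the Nr2f1 values was not tested. Both genes were under the low-count filter in the 13-library fit of the states and were not tested there, so calls in it are counted over 7 genes.

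**Figure D1:**
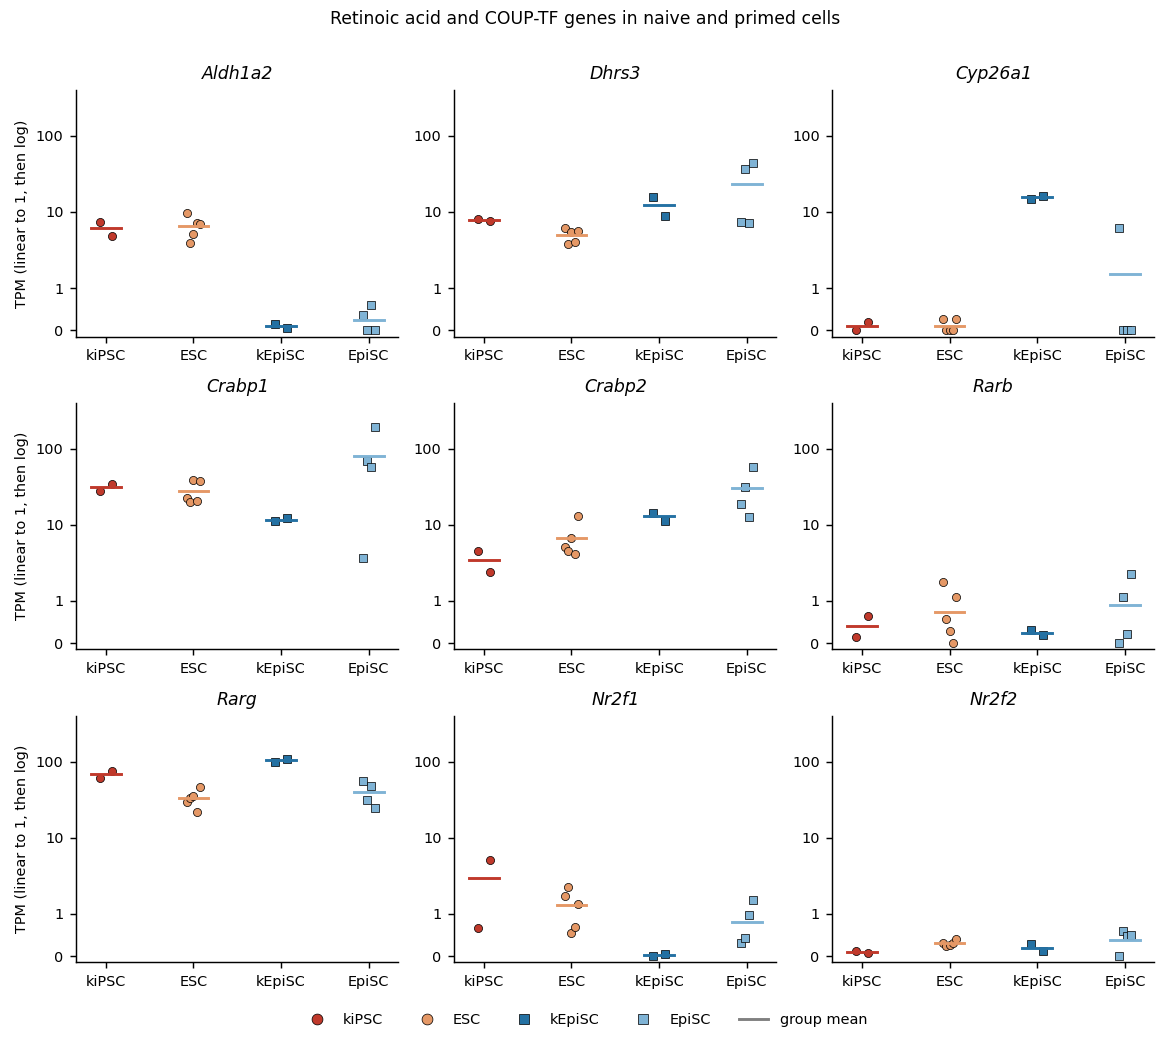
TPM of the 9 genes in kiPSCs (2 libraries), ESCs (5), kEpiSCs (2) and EpiSCs (4), with a point for each library and a bar at the group mean, on an axis that is linear to 1 TPM and logarithmic above. Aldh1a2 is at 3.88 TPM or more in every naive library and at 0.60 TPM or less in every primed one, and Cyp26a1 is above 10 TPM in kEpiSCs alone.

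For ESCs over EpiSCs 3 of 7 genes passed (1 higher, 2 lower), where 50.9% of all 13923 genes tested did. For kiPSCs over kEpiSCs 6 of 9 passed (3 higher, Nr2f1 among them, and 3 lower), where 57.5% of 14892 genes did. Both shares are near their background. For kEpiSCs over EpiSCs 1 of 7 passed (background 1.26%). For kiPSCs over ESCs 0 of 7 passed (background 0.144%), with Rarg at an unadjusted p under 0.05; 765 genes were under that threshold and DESeq2 called 77 genes, none of these 7.

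Other genes of the pathway were read from lists of 17 genes for synthesis, storage and transport, 2 for breakdown, 10 receptors and coregulators, 10 known targets and 8 relatives of the COUP-TFs. In ESCs over EpiSCs, 1 synthesis and transport gene rose and 5 fell of 9 tested (median log2 fold change -1.61, against 0.02 over all genes), where 50.9% of all genes passed. Fabp5, a fatty acid carrier that also binds retinoic acid, fell (-3.08 ± 0.43), as did the retinal reductase Rdh11 (-1.80 ± 0.22), and Aldh1a3, a relative of Aldh1a2, rose (1.86 ± 0.58). Among receptors and coregulators 4 rose and 1 fell of 10, near the share over all genes, with the receptor partner Rxrg lower, at 0 TPM in all ESC libraries and a mean of 8.65 TPM in EpiSCs, and the coactivator Ncoa3 higher (2.05 ± 0.14). Of 8 target genes tested, 3 rose and 1 fell, also near that share. Stra8, a gatekeeper of meiosis (mean 57.7 TPM in ESCs, 0 TPM in EpiSCs), and Cdx1, a trunk patterning factor (mean 59.2 TPM in ESCs, 0.12 TPM in EpiSCs), were both higher in ESCs.

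On moving to iCD1, 6 of the 9 genes passed on day 1 over kEpiSCs, where 46.3% of all genes did. Aldh1a2 and the binding proteins Crabp1 and Crabp2 were higher than in kEpiSCs from day 1 and Rarg was lower, Nr2f2 and Nr2f1 rose on day 2 with the main step of Rarb, and Cyp26a1 passed in no contrast with kEpiSCs or between days.

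Aldh1a2 had 0.15 and 0.05 TPM in kEpiSCs, 84.3 and 71.6 TPM on day 1, 187 and 239 TPM on day 2 and 14.2 and 16.1 TPM on day 3 in iCD1. The enzyme's transcript thus peaked on day 2, and no neighbouring days overlapped. Day 1 over kEpiSCs gave a log2 fold change of 9.28 ± 0.72 (adjusted p = 8.48e-08), day 2 over day 1 gave 1.49 ± 0.37 (adjusted p = 0.0105), and day 3 over day 2 gave -3.97 ± 0.43 (adjusted p = 6.13e-05). The rise on day 2 was lost when either day 1 library or day 2 replicate 2 was left out (values 1.31 to 1.61, adjusted p 0.0551 to 0.102), while the fall on day 3 was kept.

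Dhrs3, which works in the opposite direction, moved less. It had 15.7 and 8.92 TPM in kEpiSCs, 6.21 and 8.10 TPM on day 1, 14.2 and 19.5 TPM on day 2 and 18.8 and 15.3 TPM on day 3. Its fall on day 1 (-0.91 ± 0.33, adjusted p = 0.0345) and its rise on day 2 (1.30 ± 0.34, adjusted p = 0.0154) passed, but each was lost when any of 3 of the 4 libraries compared was left out.

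Crabp1 had 11.1 and 12.2 TPM in kEpiSCs, 143 and 109.8 TPM on day 1, 586 and 721 TPM on day 2 and 305 and 279 TPM on day 3. Like Aldh1a2 it was highest on day 2, with log2 fold changes of 3.33 ± 0.27 on day 1 over kEpiSCs, 2.39 ± 0.23 on day 2 over day 1 and -1.29 ± 0.22 on day 3 over day 2 (adjusted p = 1.35e-07, 3.75e-06 and 0.00186). Crabp2 had 14.4 and 11.4 TPM in kEpiSCs, 434 and 449 TPM on day 1, 342 and 314 TPM on day 2 and 633 and 731 TPM on day 3. Its rise on day 1 had the smallest standard error among these genes (4.98 ± 0.19, adjusted p = 5.18e-11), and it rose again on day 3 (0.92 ± 0.15, adjusted p = 0.00133). On day 3 Crabp2 was at a higher TPM than any other of the 9 genes.

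Cyp26a1 had 15.0 and 16.3 TPM in kEpiSCs, 16.1 and 24.8 TPM on day 1, 23.5 and 33.1 TPM on day 2 and 28.9 and 22.0 TPM on day 3. The 2 kEpiSC libraries lay below both day 3 libraries, but no contrast with kEpiSCs or between days passed (day 3 over kEpiSCs 0.49 ± 0.28, adjusted p = 0.163). In kiPSCs, the end of the transition, it was at 0.00 and 0.19 TPM, with 1 count against 261 on day 3, a ratio of 309 (95% counting interval 55.1 to 12300).

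The 2 receptors moved in opposite directions. Rarb had 0.30 and 0.19 TPM in kEpiSCs, 0.77 and 1.02 TPM on day 1, 9.32 and 10.4 TPM on day 2 and 12.04 and 10.66 TPM on day 3. Its main step was day 2 over day 1 (3.48 ± 0.45, adjusted p = 6.38e-05). The smaller rise on day 1 (1.72 ± 0.60, adjusted p = 0.0286) was lost without any one of the 4 libraries. Top2b, which overlaps Rarb on the other strand, was at 79.0 and 84.5 TPM on day 2 and 76.8 and 80.6 TPM on day 1, and did not pass between them. Rarg had 98.8 and 109 TPM in kEpiSCs, 54.8 and 57.2 TPM on day 1, 47.6 and 41.3 TPM on day 2 and 53.1 and 44.2 TPM on day 3, with a fall on day 1 (-1.01 ± 0.20, adjusted p = 0.000613) and no later step that passed.

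The COUP-TF genes went up on day 2. Both were picked on JNKi with these iCD1 libraries, which favours high values in iCD1, and their p-values here take no account of this. Nr2f2 had 0.29 and 0.11 TPM in kEpiSCs, 0.22 and 0.10 TPM on day 1, 14.5 and 13.4 TPM on day 2 and 49.4 and 35.6 TPM on day 3. The steps were 6.27 ± 0.49 on day 2 over day 1 (adjusted p = 6.1e-07) and 1.38 ± 0.29 on day 3 over day 2 (adjusted p = 0.00619), and the later step was lost without replicate 1 of day 2 or of day 3 (adjusted p 0.0687 and 0.0535). Nr2f1 had 0.00 and 0.04 TPM in kEpiSCs, 0 counts in both day 1 libraries, 20.0 and 23.7 TPM on day 2 and 60.5 and 26.4 TPM on day 3. With 283 counts on day 2 and a floor of 3 counts for day 1 as a group, Nr2f1 was at least 119-fold higher on day 2 (adjusted p = 1.13e-05). Day 3 over day 2 did not pass for Nr2f1 (0.99 ± 0.39, adjusted p = 0.119). The antisense gene A830082K12Rik went the same way, with 2.00 and 2.87 TPM on day 2 and 0.11 and 0.10 TPM on day 1, and B130024G19Rik, over Nr2f2, was at 0.14 and 2.73 TPM on day 2 and 0 on day 1.

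**Figure D2:**
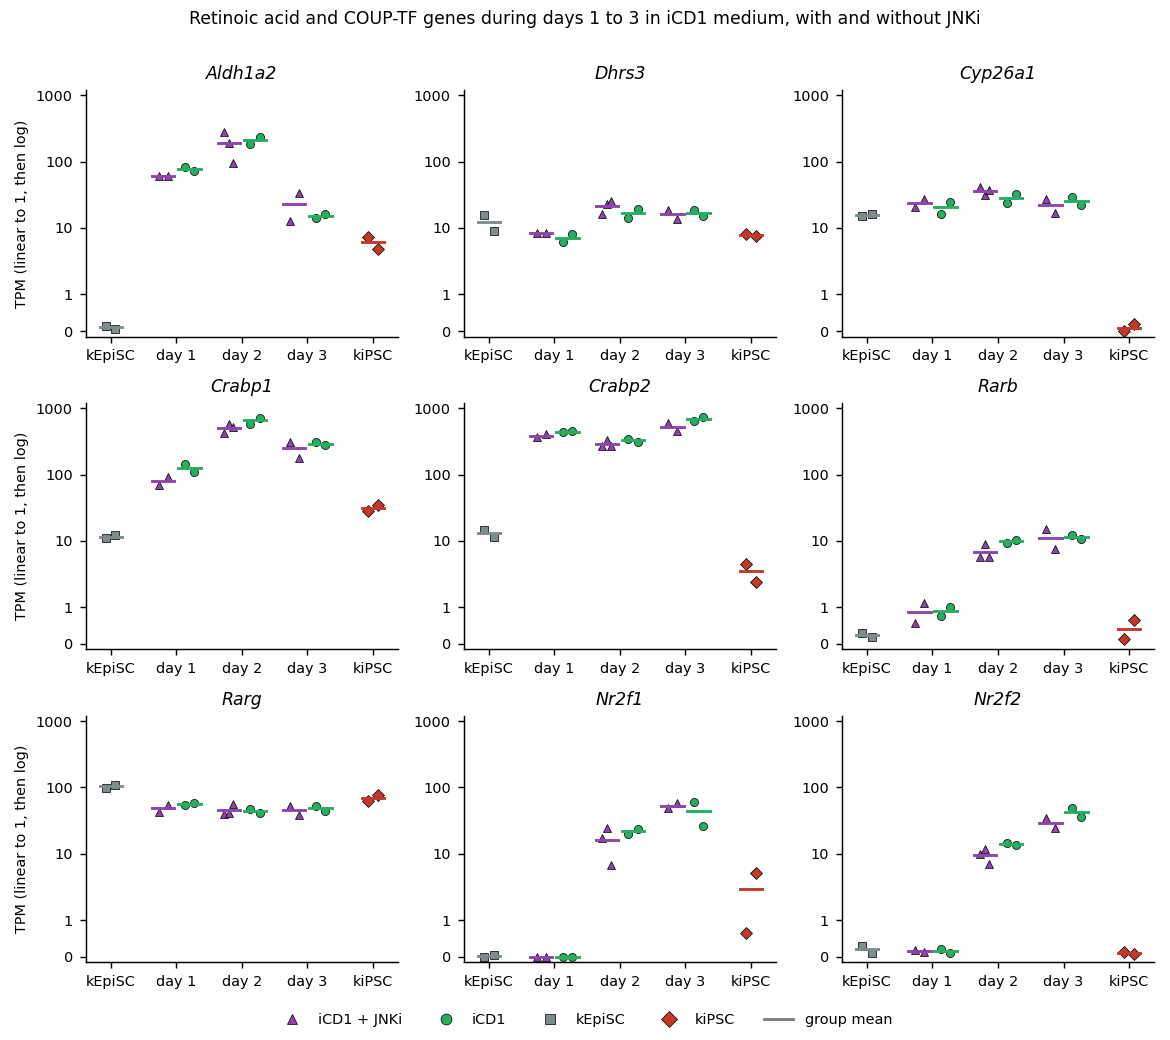
TPM of the 9 genes in kEpiSCs, on days 1 to 3 in iCD1 with JNKi and in iCD1 alone, and in kiPSCs; each point is 1 library, bars are group means, and the axis is linear to 1 TPM and logarithmic above. Aldh1a2 and Crabp1 peak on day 2, Nr2f1 and Nr2f2 are under 1 TPM on day 1 and at 6.87 TPM or more on day 2, with and without JNKi.

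The 6 genes that passed on day 1 over kEpiSCs were 4 higher and 2 lower. On day 2 over day 1, 6 passed, all higher, against a background of 16.5% of genes in either direction, and on day 3 over day 2, 4 passed (2 higher, 2 lower) against 12.2%. On day 3 over kEpiSCs 7 passed (6 higher, with Rarg lower, background 50.6%). In kiPSCs over day 3 in iCD1 8 passed (7 lower, Rarg higher at 0.55 ± 0.20, background 57.9%). Nr2f1, Nr2f2 or both are in each of these counts except that of day 1 over kEpiSCs. The pair was picked on JNKi with these iCD1 libraries, which favours high values in iCD1, so its calls are no independent result. The calls of Rarg and Dhrs3 in kiPSCs over day 3 were lost in some omissions of 1 library, named in the closing section. The median log2 fold change over the 9 genes was 1.49 on day 2 over day 1 (-0.01 over all genes) and -4.88 in kiPSCs over day 3 (0.00 over all genes). In kiPSCs Nr2f2 was back at 0.08 and 0.12 TPM, with 3 counts against 921 on day 3, a ratio of 364 (95% counting interval 124 to 1770).

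Of 10 known target genes, 6 rose and 1 fell on day 1 over kEpiSCs (median 1.96, against 0.00 over all genes), where 46.3% of all genes passed: Cdx1 averaged 220.0 TPM against 0.07 TPM (11.22 ± 0.70) and the hindbrain gene Hoxb1 155 TPM against 0.085 TPM (10.45 ± 0.36). On day 2 over day 1, 4 of 10 rose (16.5% of all genes passed), led by Rec8, a meiotic cohesin, and by the homeobox gene Meis1 (3.27 ± 0.68 and 3.23 ± 0.22). On day 3 over day 2, 1 of 10 rose and 3 fell (12.2% of all genes passed): Tgm2, a transglutaminase, rose (2.34 ± 0.68), while Hoxb1 (-1.57 ± 0.19) and Cdx1 (-1.15 ± 0.34) fell. Of the transport genes, Stra6, the membrane receptor that takes up retinol from its carrier, rose on day 1 (4.24 ± 0.29) and again on day 2 (2.77 ± 0.22). Rdh10, which makes retinal from retinol, rose on day 2 (0.76 ± 0.22) and on day 3 (1.01 ± 0.21), and Aldh1a1, a relative of Aldh1a2, rose on day 3 (4.99 ± 0.85). Among receptors, Rxrg fell on day 2 (-4.46 ± 0.63) and the corepressor Nrip1 rose on each of the 3 days (1.64 ± 0.24, 0.96 ± 0.23 and 1.12 ± 0.23). The COUP-TF relative Nr2f6 rose on day 2 (0.60 ± 0.15) and on day 3 (0.51 ± 0.14), far less than Nr2f1 and Nr2f2.

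**Figure D3:**
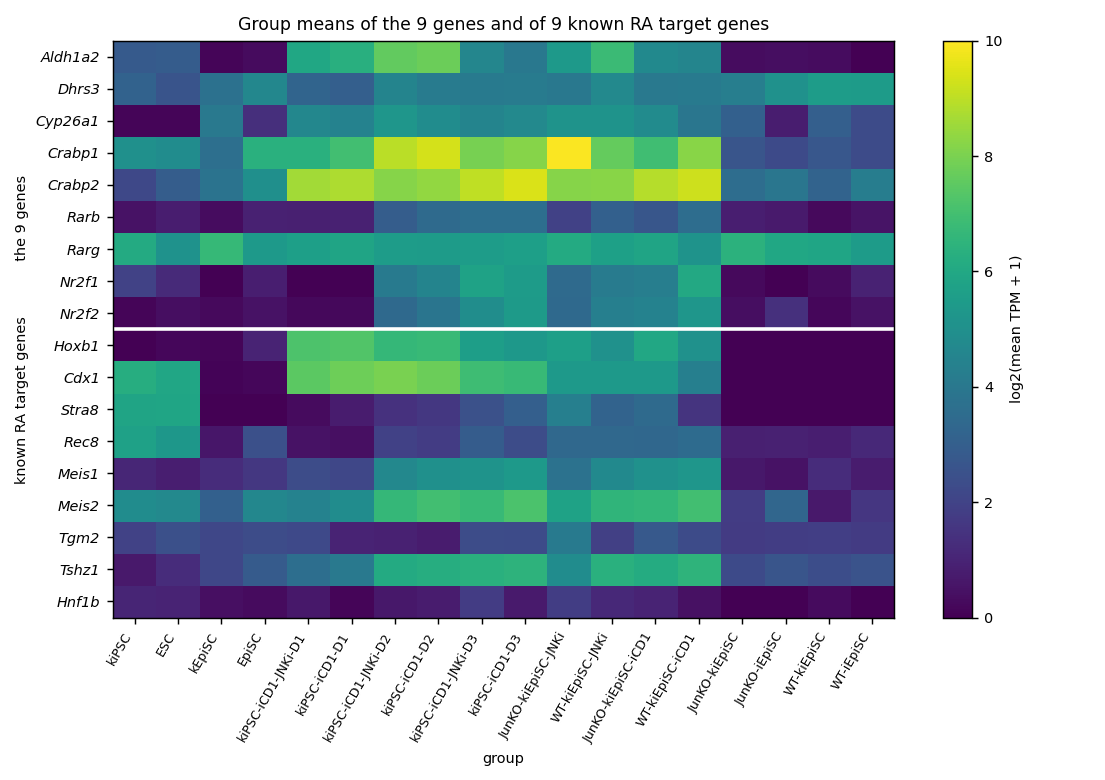
Group means of the 9 genes (upper block) and of 9 known retinoic acid target genes (lower block) over the 18 groups, coloured by log2(mean TPM + 1). Hoxb1 and Cdx1 are high from day 1 in iCD1, a day before Rarb, Nr2f1 and Nr2f2, and the 4 JunKO and WT groups at day 3 have means of 18.7 TPM or more for both.

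The summed TPM of mesoderm markers rose on day 1, led by Msgn1 (up to 298 TPM). The rise of the COUP-TF genes and the main step of Rarb came on day 2. The 12 paraxial and lateral mesoderm markers summed to 81.8 to 92.6 TPM in kEpiSCs, 432 to 448 TPM on day 1, 476 to 548 TPM on day 2 and 386 to 438 TPM on day 3, led by Msgn1 on day 1 and Meox1 on days 2 and 3. In kEpiSCs the sum was mostly Tcf15 (up to 88.5 TPM). Of the 12, 3 were at 0 in every kEpiSC library, 2 on day 1, 2 on day 2 and 3 on day 3. In kEpiSCs 10 stayed under 1 TPM in every library, as did 7 on day 1. Of 10 tested on day 1 over kEpiSCs, 4 rose and 1 fell, near the share over all genes (46.3% passed). On day 2 over day 1, 5 rose and 1 fell (16.5% of all genes passed), and on day 3 over day 2, 1 rose and 4 fell (12.2%). In kiPSCs the sum was 20.9 to 45.7 TPM. The 10 trophoblast markers summed to 34.1 to 41.0 TPM in kEpiSCs and 291 to 321 TPM on day 1, led there by Cdx2. They summed to 110 to 128 TPM on day 2 and 90.8 to 91.4 TPM on day 3. The 12 fibroblast markers summed to 20.5 to 25.0 TPM in kEpiSCs and 77.7 to 126 TPM on days 1 to 3. The sum of the 10 primed markers was highest on day 1 through T alone (2460 to 2630 TPM, against 1020 to 1210 TPM in kEpiSCs). Of these 10, 2 rose and 6 fell on day 1 over kEpiSCs (median log2 fold change -2.2), where 46.3% of all genes passed. The part of all these markers in the results was not tested. In bulk RNA fewer cells of a type and less RNA per cell cannot be told apart.

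JNKi was added to ask whether blocking the kinase upstream of c-Jun changes the transition. In the kEpiSC series none of the 7 genes not chosen for it passed on any day. On day 1, 0 of 7 passed (0% of all genes did), with 1 of the 7 and 271 genes at an unadjusted p under 0.05. On day 2, 0 of 7 passed (background 0.00672%, 1 gene, with 430 genes at an unadjusted p under 0.05), and on day 3, 0 of 7 (background 0%, 498 genes). DESeq2 called 0, 1 and 3 genes on the 3 days, and none of the 7. The difference of the JNKi effect between day 3 and day 1 gave 0 of 7 (background 0%, 339 genes at an unadjusted p under 0.05, 1 gene by DESeq2).

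Several values leaned one way without passing. Crabp1 on day 1 had 68.9 and 92.5 TPM with JNKi, against 143 and 109.8 TPM in iCD1 (-0.65 ± 0.24, unadjusted p = 0.0149, adjusted p = 1). Crabp2 on day 3 had 606 and 452 TPM with JNKi, against 633 and 731 TPM in iCD1 (-0.33 ± 0.15, adjusted p = 1). Aldh1a2 varied widely among the JNKi libraries of day 2, at 285, 192 and 95.3 TPM, against 187 and 239 TPM in iCD1. On day 3 Aldh1a2 overlapped, at 12.95 and 33.34 TPM with JNKi and 14.2 and 16.1 TPM in iCD1 (0.60 ± 0.47).

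For the COUP-TF genes, picked on this contrast, the values are as follows. Nr2f2 on day 2 had 10.1, 11.7 and 7.04 TPM with JNKi, against 14.5 and 13.4 TPM in iCD1, and on day 3 it had 34.1 and 24.3 TPM with JNKi, against 49.4 and 35.6 TPM in iCD1. All JNKi libraries of each day lay below the iCD1 libraries of that day (log2 fold changes -0.60 and -0.53). Nr2f1 overlapped on both days, with 17.1, 24.0 and 6.87 TPM with JNKi against 20.0 and 23.7 TPM in iCD1 on day 2, and 48.5 and 57.3 TPM with JNKi against 60.5 and 26.4 TPM in iCD1 on day 3 (-0.62 and 0.15). On day 1 both groups had 0 Nr2f1 counts. JNKi replicate 3 of day 2 was the lowest of its group for Aldh1a2 and both COUP-TF genes. The summed mesoderm markers ran from 248 to 548 TPM in that group and from 476 to 548 TPM in iCD1, and their part in these values was not tested.

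The c-Jun deletion was made to ask how loss of the factor itself changes the same steps. WT cells came to day 3 in iCD1 from another starting line than the kEpiSC series. Aldh1a2 had 24.5 and 21.0 TPM in WT cells at day 3, against 0.25 TPM in WT kiEpiSCs and 0.00 TPM in WT iEpiSCs (7.07 ± 1.34, adjusted p = 0.00268). Crabp2 had 571 and 629 TPM, against 8.05 and 17.7 TPM in the primed libraries (5.52 ± 0.24, adjusted p = 9.11e-07), and Crabp1 310 and 289 TPM against 5.61 and 3.84 TPM (5.89 ± 1.56, adjusted p = 0.0149). Rarb had 12.5 and 9.52 TPM against 0.18 and 0.44 TPM (5.0 ± 0.63, adjusted p = 0.000238). Nr2f2 had 40.7 and 33.8 TPM against 0.13 and 0.42 TPM (7.61 ± 0.33, adjusted p = 9.11e-07), and Nr2f1 78.7 and 49.5 TPM against 0.22 and 0.93 TPM (7.02 ± 0.46, adjusted p = 5.31e-06). The day 3 libraries are among those on which the COUP-TF pair was picked, which favours high values in iCD1. The p-values of the pair take no account of this choice.

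In WT cells 8 of the 9 genes passed at day 3 over primed (7 higher, with Rarg lower), where 32.1% of 12613 genes did. Nr2f1 and Nr2f2, picked on these day 3 libraries, are among the 8. Cyp26a1 was among them at 12.7 and 15.4 TPM at day 3, against 7.14 and 3.89 TPM in primed cells (1.43 ± 0.48, adjusted p = 0.0404). Its call was lost without either day 3 library or without the kiEpiSC library. In the last case the value was 0.19, with the line term taken from JunKO cells alone. Rarg also lost its call under each omission. Without the WT kiEpiSC library 3 genes passed, and without the WT iEpiSC library 5.

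In JunKO cells at day 3 in iCD1 over JunKO primed cells 6 of the 9 passed, all higher, where 29.1% of genes did. Both COUP-TF genes, picked on JNKi, are among the 6. Aldh1a2 had 41.5 and 9.92 TPM at day 3, against 0.27 and 0.29 TPM in primed cells (6.36 ± 1.18, adjusted p = 0.00273), and Crabp2 486 and 468 TPM against 10.8 and 14.1 TPM (5.24 ± 0.25, adjusted p = 2.49e-06). Cyp26a1 had 34.2 and 21.2 TPM against 7.34 TPM in kiEpiSCs and 0.76 TPM in iEpiSCs (3.01 ± 0.48, adjusted p = 0.00113). This value is over the midpoint of both lines, and the day 3 cells are of the kiEpiSC line. Rarb had 5.77 and 4.86 TPM against 0.79 and 0.64 TPM (2.8 ± 0.57, adjusted p = 0.00473). Nr2f2 had 20.5 and 20.7 TPM against 0.28 and 1.62 TPM (5.34 ± 0.29, adjusted p = 3.61e-06), and Nr2f1 14.0 and 22.4 TPM against 0.19 and 0.00 TPM (6.65 ± 0.60, adjusted p = 4.56e-05). Aldh1a2, Cyp26a1 and both COUP-TF genes thus rose in cells without c-Jun. The calls of Aldh1a2 and Rarb were lost without either primed library. Crabp1 had 129.69 and 112.91 TPM at day 3, against 5.18 and 3.73 TPM in primed cells, and missed the threshold (4.72 ± 1.69, adjusted p = 0.0581). It passed with DESeq2 (adjusted p = 0.00236), with limma at both pseudocounts (0.0185 and 0.0163) and with all 38 libraries in one fit (0.00787). The change itself differed between JunKO and WT for 0 of the 9 genes (background 0.0159%, 3 of the 9 and 711 genes at an unadjusted p under 0.05; DESeq2 called 22 genes and 0 of the 9), with Nr2f2 at -2.27 and Rarb at -2.20 ± 0.99 (adjusted p = 0.881).

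**Figure D4:**
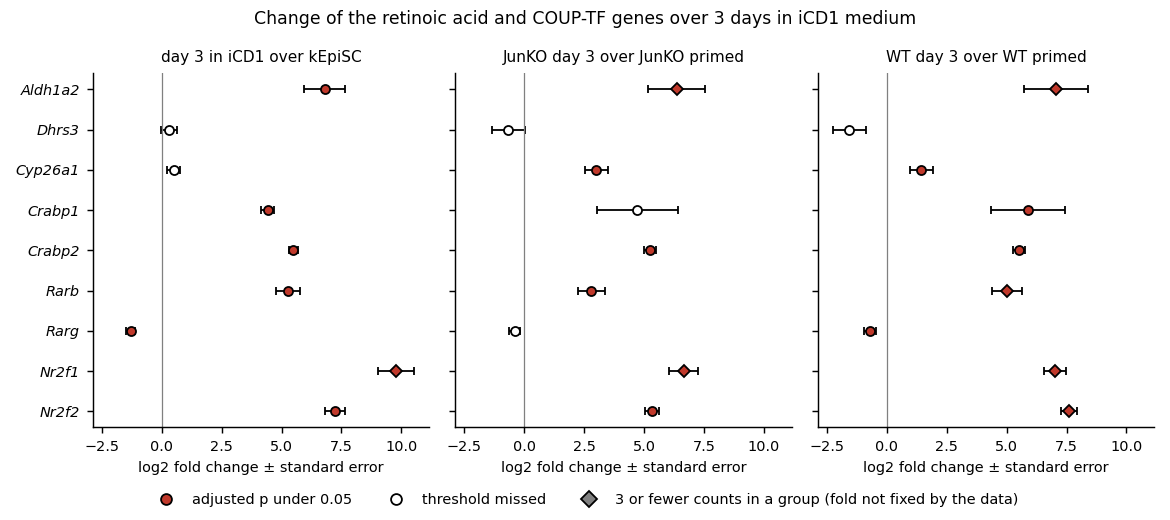
Log2 fold changes of the 9 genes (points) with standard errors (bars) for day 3 in iCD1 over kEpiSCs, JunKO cells at day 3 over JunKO primed cells and WT cells at day 3 over WT primed cells. Filled points passed the test, open points missed the threshold, and diamonds mark groups with 3 counts or fewer, where the data do not fix the fold. Crabp2 lies between 5.24 and 5.52 in all 3 panels, and Rarg is below 0 in all 3 but open in JunKO cells.

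In primed culture JunKO and WT cells differed in 0 of the 9 genes (background 0.357%; 1037 genes, none of them among the 9, had an unadjusted p under 0.05, and DESeq2 called 105 genes and 0 of the 9). Rarg had 85.3 and 61.5 TPM in JunKO kiEpiSCs and iEpiSCs, against 58.3 and 44.2 TPM in WT kiEpiSCs and iEpiSCs (0.47 ± 0.24, adjusted p = 0.689). Aldh1a2, Nr2f1 and Nr2f2 were at or under 1.62 TPM in all 4 libraries.

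At day 3 in iCD1 the JunKO values of both COUP-TF genes lay below the WT values. Nr2f1 had 14.0 and 22.4 TPM in JunKO cells, against 78.7 and 49.5 TPM in WT cells (log2 fold change -1.76), and Nr2f2 had 20.5 and 20.7 TPM in JunKO cells, against 40.7 and 33.8 TPM in WT cells (-0.80). In both genes neither JunKO library reached the WT range. The pair was picked for being lower with JNKi than in these iCD1 libraries, so the values are a description with no test. Of the other 7 genes 0 passed, where 1.7% of all genes did, with 3 of the 7 and 1648 genes at an unadjusted p under 0.05 (DESeq2 called 212 genes and 0 of the 7). Over Nr2f1, A830082K12Rik had 1.63 and 3.65 TPM in JunKO cells, against 9.95 and 12 TPM in WT cells, and did not pass.

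Among the 7, Rarb was at 5.77 and 4.86 TPM in JunKO cells against 12.5 and 9.52 TPM in WT cells (-1.03 ± 0.42, adjusted p = 0.313). Cyp26a1 leaned the other way, at 34.2 and 21.2 TPM in JunKO cells against 12.7 and 15.4 TPM in WT cells (0.98 ± 0.39, adjusted p = 0.295), as did Rarg at 52.5 and 59.3 TPM against 32.5 and 35.8 TPM (0.78 ± 0.24, adjusted p = 0.17). Crabp1 was at 129.69 and 112.91 TPM in JunKO cells, against 310 and 289 TPM in WT cells, and did not pass in the main fit. With edgeR on only the groups compared it passed (-1.3, adjusted p = 0.0184), as it did with no filter beyond 1 count (-1.28, adjusted p = 4.05e-10). Dhrs3 split by replicate in both genotypes, at 25.3 and 5.38 TPM in JunKO cells and 24.3 and 8.46 TPM in WT cells.

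With JNKi at day 3, 0 of the 7 genes passed between genotypes, where 0.92% of all genes did (3 of the 7 and 2085 genes at an unadjusted p under 0.05, with 195 genes and 0 of the 7 called by DESeq2). For the COUP-TF pair, picked with these JNKi libraries, the values are again a description. Nr2f2 had 9.80 and 9.37 TPM in JunKO cells, against 18.4 and 19.8 TPM in WT cells (-1.30), and Nr2f1 had 7.90 and 12.3 TPM in JunKO cells, against 13 and 21.1 TPM in WT cells (-0.93), with no overlap in either gene. Aldh1a2 had 57.1 and 23.7 TPM in JunKO cells, against 133 and 88.2 TPM in WT cells (-1.48 ± 0.52, adjusted p = 0.194), and Rarb 3.87 and 1.78 TPM against 5.53 and 9.35 TPM (-1.42 ± 0.45, adjusted p = 0.151).

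Crabp1 set the 2 JunKO libraries with JNKi apart, at 66.2 TPM in replicate 1 and 1918 TPM in replicate 2, against 267 and 131 TPM in WT cells with JNKi. The 1918 TPM is the highest level of any of the 9 genes in the 38 libraries. The contrast did not pass (2.23 ± 0.95, adjusted p = 0.271), and without replicate 1 it was 3.19 (adjusted p = 0.000136). Replicate 2 was below replicate 1 for Aldh1a2, Dhrs3 and Rarb and above it for Crabp2 and Nr2f1, so it was not higher across the pathway.

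The 12 mesoderm markers summed to 202 to 511 TPM in JunKO and 391 to 651 TPM in WT cells in iCD1, which overlap. With JNKi they summed to 144 to 217 TPM in JunKO and 483 to 679 TPM in WT cells, without overlap. The 4 primed libraries had 19.1 to 27.6 TPM. Of 6 markers tested between genotypes, 0 passed in iCD1 (1.7% of all genes did). With JNKi 2 passed, both lower in JunKO cells (0.92% of all genes did). Naive markers summed to 594 to 1090 TPM in JunKO and 159 to 242 TPM in WT cells in iCD1, and to 1310 to 1790 TPM in JunKO and 652 to 770 TPM in WT cells with JNKi. Their part in the lower COUP-TF levels was not tested.

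**Figure D5:**
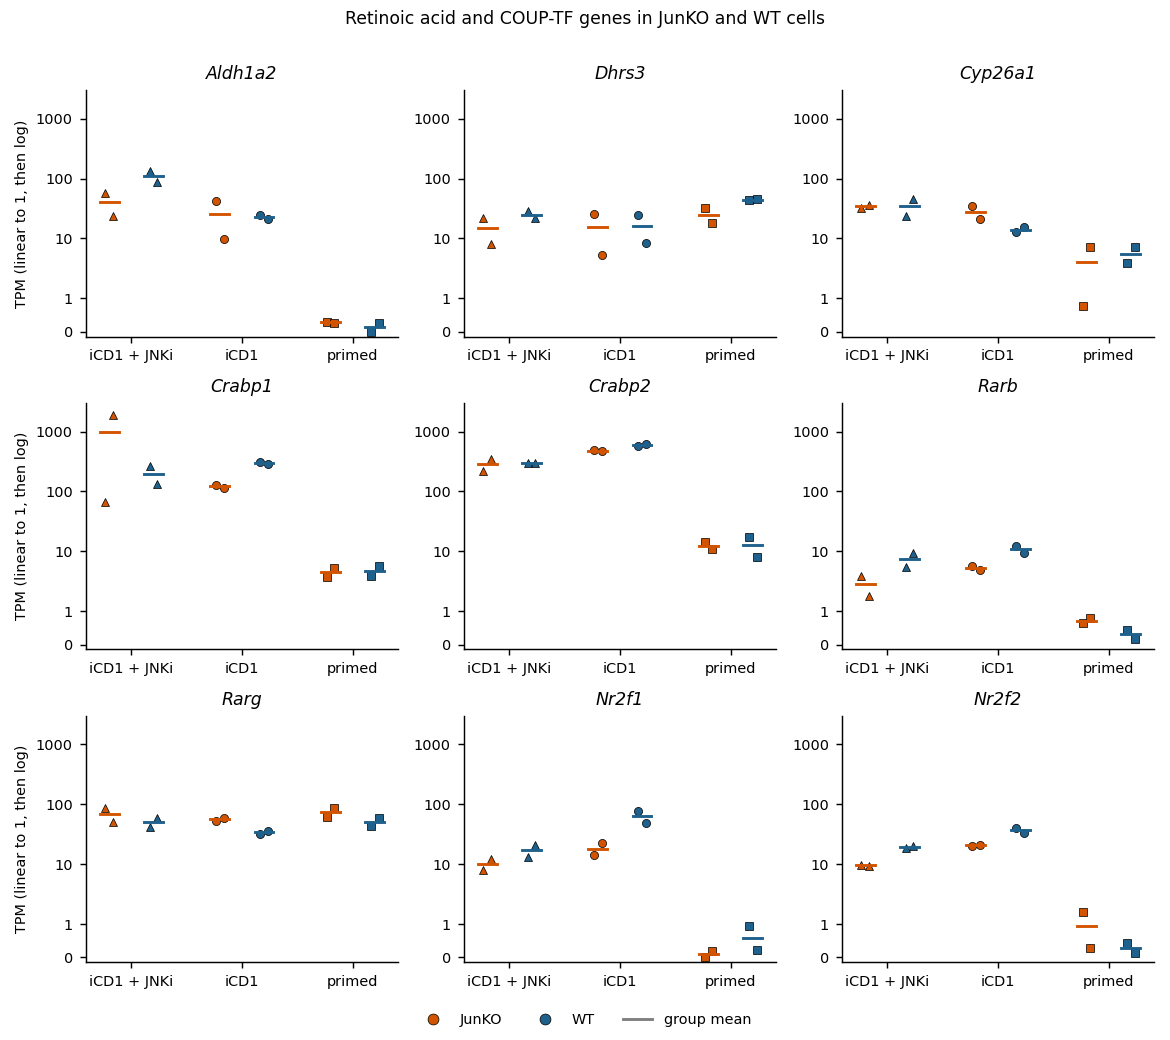
TPM of the 9 genes in JunKO and WT cells at day 3 in iCD1 with JNKi, at day 3 in iCD1 and in primed culture, 2 libraries a group with bars at the means, on an axis that is linear to 1 TPM and logarithmic above; primed libraries are 1 kiEpiSC and 1 iEpiSC per genotype. Nr2f1 and Nr2f2 are at 1.62 TPM or less in all primed libraries and lie lower in JunKO than in WT cells in iCD1, and 1 JunKO library with JNKi stands alone at 1918 TPM of Crabp1.

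JNKi was also added to both genotypes. In WT cells at day 3, 1 of 7 genes passed, where 0.484% of all genes did: Crabp2 had 299 and 303 TPM with JNKi, against 571 and 629 TPM in iCD1 (-1.0 ± 0.17, adjusted p = 0.0391). Crabp2 was lower with JNKi in both libraries, but leaving out any 1 of the 4 libraries lost the call (adjusted p 0.136 to 0.338). Aldh1a2 had 133 and 88.2 TPM with JNKi, against 24.5 and 21.0 TPM in iCD1 (2.27 ± 0.55, adjusted p = 0.106), and passed with DESeq2 (adjusted p = 0.00246), with only the groups compared (0.00532) and with all 38 libraries in one fit (0.042). Cyp26a1 had 23.4 and 45.2 TPM with JNKi, against 12.7 and 15.4 TPM in iCD1 (1.27 ± 0.38, adjusted p = 0.178). As description, Nr2f1 had 13 and 21.1 TPM with JNKi against 78.7 and 49.5 TPM in iCD1 (-1.93), and Nr2f2 18.4 and 19.8 TPM against 40.7 and 33.8 TPM (-0.93).

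In JunKO cells 0 of 7 genes passed for JNKi (background 0.0476%; 2 of the 7 and 1585 genes at an unadjusted p under 0.05, with 94 genes and 1 of the 7 called by DESeq2). Crabp2 had 223 and 352 TPM with JNKi, against 486 and 468 TPM in iCD1 (-0.82 ± 0.17, adjusted p = 0.127, and 0.0212 with DESeq2). Aldh1a2 overlapped, at 57.1 and 23.7 TPM with JNKi and 41.5 and 9.92 TPM in iCD1 (0.62 ± 0.55, adjusted p = 0.703). Nr2f1 had 7.90 and 12.3 TPM with JNKi against 14.0 and 22.4 TPM in iCD1 (-1.09), and Nr2f2 9.80 and 9.37 TPM against 20.5 and 20.7 TPM (-1.43). The COUP-TF levels were thus lower with JNKi also in the cells without c-Jun, as description of the pair picked for it. The JNKi effect differed between JunKO and WT cells in 0 of 7 genes (background 0%; 1 of the 7, Crabp1, and 727 genes at an unadjusted p under 0.05; DESeq2 called 1 gene and 0 of the 7), and without JunKO JNKi replicate 1 Crabp1 passed (4.49, adjusted p = 0.000602).

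Of the known target genes, 8 of 9 tested rose at day 3 over primed in JunKO cells (median 5.58, against 0.02 over all genes), where 29.1% of all genes passed in either direction. In WT cells 7 of 9 rose (median 5.67, against 0.00 over all genes), where 32.1% did. Hoxb1 averaged 62.6 TPM in JunKO cells at day 3 and 32.7 TPM in WT cells at day 3, with 0 TPM in primed cells of either genotype. Stra6 averaged 202 TPM against 0.57 TPM in JunKO cells (8.25 ± 1.02) and 211 TPM against 1.95 TPM in WT cells (7.85 ± 0.97). Between genotypes or with JNKi, 1 gene of the 47 on these lists passed: Meis2, a homeobox gene, at 53.5 TPM in JunKO and 91.7 TPM in WT cells with JNKi (-1.01 ± 0.20, adjusted p = 0.046).

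Ordered over all 18 groups, Nr2f1, Nr2f2, Rarb and Crabp2 had their highest means at day 3 in iCD1 of WT cells or of the kEpiSC series, and Aldh1a2 on day 2 (213 TPM). For Rarb the means of 11.3 TPM on day 3 in iCD1, 11.2 TPM on day 3 with JNKi and 11.0 TPM in WT cells at day 3 overlapped in their libraries. Cyp26a1 was highest on day 2 with JNKi (36.7 TPM), where its libraries overlapped those of the next groups down, JNKi-treated WT and JunKO cells (34.3 and 34.2 TPM). Rarg was highest in kEpiSCs (104 TPM), apart from the next group, and lowest in ESCs (33.2 TPM). Dhrs3 was highest in WT kiEpiSCs (45.4 TPM, 1 library), and Crabp1 in JunKO cells with JNKi (992 TPM, between libraries of 66.2 and 1918 TPM). Across the 18 group means of log2(CPM + 1), where CPM is the count scaled to library size, the genes most like Nr2f1 were Nr2f2 (Pearson r = 0.975), Sox6 (0.968) and Rbms3 (0.964), and those most like Nr2f2 were Sox6 (0.978), Fbn2 (0.976) and Nr2f1 (0.975). Most like Rarb were Pax7 (0.983), Gm14226 (0.976) and Haglr (0.976), most like Crabp2 were Zfp703 (0.979), Zfp503 (0.979) and Mapkapk2 (0.978), and most like Cyp26a1 were Plac8 (0.929), Hmga2 (0.921) and Emp3 (0.916). These are descriptions over 11718 genes and 18 groups that share cell lines and media.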

How the data were processed

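RNA from 38 libraries was analysed from the authors' gene tables. Per the labels, RNA was taken in TRIzol and sequenced on a NextSeq 500 after the TruSeq RNA kit; the study's methods name another kit. The authors aligned with Bowtie2 to mm10 and counted with RSEM (versions not given in the sources used here). The deposited expected counts are not normalized, and the deposited TPM are corrected for effective length. The deposited FPKM were not used.

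Expected counts were rounded and tested with edgeR 4.0.16 (R 4.3.3): TMM factors, filterByExpr with a minimum count of 10, glmQLFit and glmQLFTest, and Benjamini-Hochberg adjustment over all genes tested (threshold 0.05). The 3 fits shared the spread among 13, 17 and 12 libraries (13923, 14892 and 12613 genes; 9, 9 and 5 residual degrees of freedom). In the last, iEpiSC and kiEpiSC of a genotype entered as primed with a term for the line. That term covered the primed libraries only. Day 3 cells, all of the kiEpiSC line, were thus set against the midpoint of both lines and not against kiEpiSCs alone. Standard errors were the log2 fold change over the root of F. Folds against groups of 3 counts or fewer have exact 95% counting intervals, which cover counting error only. The script was tested on simulated data. Alternatives were DESeq2 1.42.0, limma 3.58.1 on log2(TPM + 1) and log2(TPM + 0.1), RLE factors, no filter beyond 1 count, a filter at 1 CPM, the replicate number as a block, only the groups compared, all 38 libraries in one fit, ESC replicate 5 alone, each library left out and, for levels, CPM in place of TPM.

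The 9 genes and all gene lists were chosen with earlier results of these data known. Named genes are the 9, and up to 3 called genes per list and comparison with the largest change. Symbols came from GENCODE M21 (28756 of 29267 identifiers matched). The labels do not state separate cultures for replicates, so each p-value covers only library-to-library spread, which may be technical. No library was a copy of another. Values of 2 genes on these lists are not reported here.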

Additional observations from a re-analysis of the deposited data

Results flagged for a closer look

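Cyp26a1 in EpiSC replicate 1 stood apart from the other libraries of its group, at 6.10 TPM (13 counts) where replicates 2, 3 and 4 had 0 counts. Crabp2 in ESC replicate 5 stood apart at 13.2 TPM, where the other 4 ESC libraries had 4.17 to 6.74 TPM. Both were tested with Dixon's ratio of gap to range (1.00 and 0.715, against critical values at the 95% level) in 18 sets of 4 or 5 libraries, and chance marks about 1 in 20 such sets. The ratio was 1.00 for Cyp26a1 because the other 3 values were equal. No difference between groups in the effect of JNKi or of the move to iCD1 passed for any of the genes tested (7 for JNKi, 9 for the move to iCD1).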

How the results depend on the processing

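Of 1707 values recomputed under other settings, 1610 kept their direction and their side of the threshold, 39 lost a call, 47 gained one, 11 counts of genes called moved and 0 called values reversed. Of 951 values with 1 library left out, 871 kept both, 54 lost a call, 13 gained one, 13 counts moved and 0 called values reversed. The cause of these changes was not tested.

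Counted over all 9 genes, the main fit called 2 for JunKO over WT in iCD1 and 1 for JunKO over WT with JNKi. These were Nr2f1 and Nr2f2 in iCD1 and Nr2f2 with JNKi, which are description and no test. The number of the 9 genes called, the COUP-TF pair included between genotypes, moved by over 1.5 times or to or from 0 in the following cases. It moved by 1 or 2 genes in others. With replicate 5 as the only ESC library, 1 passed for ESCs over EpiSCs. For kEpiSCs over EpiSCs it was 2 with limma on log2(TPM + 1), 2 with DESeq2, 0 with only the groups compared and 5 with all 38 libraries in one fit, which also gave 1 for kiPSCs over ESCs, 2 for day 3 over day 2 and 1 for JunKO over WT in iCD1. With no filter beyond 1 count it was 1 for JNKi on day 1, 5 for JunKO over WT in iCD1, 5 for JunKO over WT with JNKi, 4 for JNKi in WT, 2 for JNKi in JunKO cells and 2 for the JNKi effect between genotypes. With limma at pseudocounts of 1 and 0.1 it was 0 for JunKO over WT in iCD1, for JunKO over WT with JNKi and for JNKi in WT. DESeq2 gave 1 for JunKO over WT in iCD1, 2 for JNKi in WT and 1 for JNKi in JunKO cells. With only the groups compared it was 0 for JunKO over WT with JNKi and 2 for JNKi in WT.

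With 1 library left out, the count ranged from 3 to 4 for ESCs over EpiSCs, 0 to 3 for kEpiSCs over EpiSCs, 6 to 7 for kiPSCs over kEpiSCs, 4 to 5 for day 1 over kEpiSCs, 4 to 6 for day 2 over day 1, 3 to 4 for day 3 over day 2 and 6 to 8 for kiPSCs over day 3. It ranged from 3 to 6 for WT at day 3 over primed, 4 to 6 for JunKO at day 3 over primed, 0 to 0 for JunKO over WT in iCD1, 0 to 4 for JunKO over WT with JNKi, 0 to 0 for JNKi in WT, 0 to 1 for JNKi in JunKO cells and 0 to 1 for the JNKi effect between genotypes. In kiPSCs over day 3, Rarg lost its call without day 3 replicate 2 or kiPSC replicate 2, and Dhrs3 without day 3 replicate 1 or kiPSC replicate 2.

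Same-numbered libraries had correlated deviations of -0.11 to 0.47. For ESCs over EpiSCs, the contrast with over 3 such pairs, they were -0.11 to 0.11. For JNKi in the kEpiSC series they were 0.36 on day 1, 0.31 and 0.47 on day 2 and 0.25 on day 3. They were 0.41 for JunKO over WT in iCD1 and 0.24 for JNKi in WT. For JunKO over WT with JNKi they were 0.11, and for JNKi in JunKO cells 0.08. The main tests left the replicate number out, so spread shared by same-numbered libraries stayed in their error. With the replicate number as a block, 2 genes were called for JunKO over WT with JNKi, 2 for JNKi in WT and 1 for JNKi in JunKO cells, through Aldh1a2 (-1.59, adjusted p = 0.0203, and 2.25, adjusted p = 0.00999) and Crabp2 (-0.83, adjusted p = 0.0344). For WT at day 3 over primed Rarg (adjusted p = 0.0527) and Cyp26a1 (0.0534) lost their calls under the block. Over all genes 537, 268 and 162 were called with the block, against 116, 61 and 6 without it. Without the filter 1138, 792 and 717 were. For JunKO over WT in iCD1 the block gave 364 genes and no filter 822, against 215, and limma gave 132 and 105. DESeq2 called 599 genes for kEpiSCs over EpiSCs, against 176, and 195, 149 and 94 for JunKO over WT with JNKi and for JNKi in WT and in JunKO cells. The JunKO and WT libraries held 2821040 to 3724455 counts each, and for genes at 3 counts or fewer in a group depth leaves wide intervals.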
